A study of Mus musculus with 4 samples.

Results

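Wnt signalling genes were followed in ATAC-seq peak lists from B16F10 cells, a mouse melanoma line. The set held 44 genes of the 21883 protein-coding genes placed on the genome: 19 Wnt ligands, 10 Frizzled receptors, the 2 co-receptors Lrp5 and Lrp6, 9 cytoplasmic members and 4 nuclear members. A gene's window was its body in the mm10 assembly plus 10 kb on each side. Peaks of the 4 lists were merged into 103629 regions, of which 75458 lay in the window of a protein-coding gene and 270 in the window of one of these 44 genes. The set was chosen by pathway membership, but with the same contrast already known gene by gene: Gsk3b, selected on its count of regions absent from sgArid1a cells, brought it forward. Counts and covered lengths over the set are therefore given as a description with no test, beside the same over all protein-coding genes; 2 libraries against 2 could in any case not give an exact permutation p below 0.333.

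Omni-ATAC, a protocol in which the Tn5 transposase cuts and tags accessible DNA, was run in vitro on cells carrying a guide RNA against Arid1a (sgArid1a, n = 2) and on cells carrying a scrambled guide (sgScramble, n = 2). The sample titles, which set the groups here, call the scrambled guide sgScr, whereas the peaks of those libraries are named sgNT. The Arid1a protein belongs to the BAF complex, a SWI/SNF-type remodeller that moves nucleosomes. All 4 libraries came from B16F10 cells, and the labels name no clone, further treatment or time after guide delivery. Nothing states that the replicates came from separate cultures, so their spread may be technical.

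Wnt ligands are secreted, lipid-modified proteins that bind a Frizzled receptor together with Lrp5 or Lrp6. Without a ligand, a cytoplasmic complex of Axin, Apc and the kinases Gsk3a and Gsk3b marks beta-catenin (Ctnnb1) for destruction. Receptor engagement, relayed by the Dishevelled proteins Dvl1, Dvl2 and Dvl3, stops this, and beta-catenin then enters the nucleus and acts through the DNA-binding proteins Tcf7, Tcf7l1, Tcf7l2 and Lef1. In the melanocyte lineage this pathway is known for its part in the specification of pigment cells from the neural crest and in the control of Mitf.

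The peak lists differed in length, with 65353 and 71255 peaks in sgArid1a replicates 1 and 2, against 82319 and 85613 in sgScramble replicates 1 and 2. They hold no read counts, so the depth of each library is unknown, and the part of depth in the shorter sgArid1a lists was not tested. At Arid1a itself, a peak within 1 kb of the gene start stood in all 4 lists, and its window held 5 and 5 regions in sgArid1a cells, against 8 and 9 in sgScramble cells; a peak list does not show whether the guide cut the gene. All 7 melanocyte genes examined (Mitf, Sox10, Tyr, Dct, Pmel, Mlana and Tyrp1) had a start peak in all 4 lists. None of 4 leukocyte, 2 endothelial and 3 epithelial markers had one in any list, and of 3 fibroblast markers Col1a1 had one in all 4 lists, Pdgfra in the sgScramble lists alone and Dcn in none.

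Sequences of 300 bases around annotated starts (250 before and 50 from the start on, RefSeq, GRCm38.p6, 5′ to 3′ on the gene's strand) are shown for the members whose starts carry the contrasts described below. The table held 41 promoters of 32 of the 44 genes. Capitals mark the motifs searched for on both strands: CTTTGAT for TCF/LEF, CACGTG for an E-box, TGANTCA for AP-1 and TATAAA for a TATA box. No capitals overlap between motifs in the sequences shown. Wnt7a is shown because its start had peaks in sgScramble cells alone. Wnt11 and Tcf7l2 are each shown with a start that every list covered and a start that no list covered. Gsk3b is shown as a start covered throughout in every list, and Fzd10 as the start of a receptor gene with no peak at all.
Wnt7a, chr6:91411304-91411603, minus strand: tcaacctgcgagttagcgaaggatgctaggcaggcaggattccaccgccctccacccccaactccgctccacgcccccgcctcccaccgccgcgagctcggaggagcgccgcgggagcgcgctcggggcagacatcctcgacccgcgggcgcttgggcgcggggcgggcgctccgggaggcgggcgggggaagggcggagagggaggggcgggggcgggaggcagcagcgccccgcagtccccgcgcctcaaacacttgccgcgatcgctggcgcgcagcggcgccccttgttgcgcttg
Wnt11 upstream start, chr7:98834862-98835161, plus strand: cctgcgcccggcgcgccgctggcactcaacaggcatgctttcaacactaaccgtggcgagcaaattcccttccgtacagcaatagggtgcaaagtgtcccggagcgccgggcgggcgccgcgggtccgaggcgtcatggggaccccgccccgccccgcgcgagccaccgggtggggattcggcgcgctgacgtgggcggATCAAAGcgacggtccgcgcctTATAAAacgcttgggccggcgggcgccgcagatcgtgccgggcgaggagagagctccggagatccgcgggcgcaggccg
Wnt11 downstream start, chr7:98838595-98838894, plus strand: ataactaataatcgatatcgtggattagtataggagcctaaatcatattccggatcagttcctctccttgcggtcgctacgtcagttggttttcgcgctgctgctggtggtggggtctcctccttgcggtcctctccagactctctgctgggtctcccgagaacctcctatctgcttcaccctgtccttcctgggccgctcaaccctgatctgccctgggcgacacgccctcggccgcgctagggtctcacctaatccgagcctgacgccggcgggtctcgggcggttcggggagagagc
Tcf7l2 upstream start, chr19:55741560-55741859, plus strand: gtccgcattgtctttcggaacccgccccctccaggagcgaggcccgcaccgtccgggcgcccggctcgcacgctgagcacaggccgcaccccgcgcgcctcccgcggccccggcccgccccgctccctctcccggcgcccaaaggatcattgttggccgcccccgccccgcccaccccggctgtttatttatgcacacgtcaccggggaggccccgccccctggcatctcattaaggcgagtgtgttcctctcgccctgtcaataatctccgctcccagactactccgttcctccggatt
Tcf7l2 downstream start, chr19:55895071-55895370, plus strand: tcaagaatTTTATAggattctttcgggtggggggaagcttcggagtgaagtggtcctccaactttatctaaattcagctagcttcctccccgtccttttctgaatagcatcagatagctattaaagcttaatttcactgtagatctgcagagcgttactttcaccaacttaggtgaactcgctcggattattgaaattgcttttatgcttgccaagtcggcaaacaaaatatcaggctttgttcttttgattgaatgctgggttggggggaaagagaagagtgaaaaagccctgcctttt
Gsk3b, chr16:38088751-38089050, plus strand: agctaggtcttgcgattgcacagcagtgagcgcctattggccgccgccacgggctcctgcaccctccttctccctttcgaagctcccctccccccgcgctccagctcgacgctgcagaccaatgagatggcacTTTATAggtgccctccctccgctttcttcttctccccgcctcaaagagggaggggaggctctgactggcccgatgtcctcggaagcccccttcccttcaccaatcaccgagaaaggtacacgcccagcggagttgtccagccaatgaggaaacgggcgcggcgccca
Fzd10, chr5:128600856-128601155, plus strand: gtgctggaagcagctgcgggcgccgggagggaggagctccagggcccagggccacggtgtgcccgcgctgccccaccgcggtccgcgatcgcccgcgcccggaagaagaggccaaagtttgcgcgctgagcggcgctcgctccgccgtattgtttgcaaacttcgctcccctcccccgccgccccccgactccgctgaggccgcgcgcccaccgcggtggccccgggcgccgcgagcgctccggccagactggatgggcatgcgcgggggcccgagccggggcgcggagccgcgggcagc

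These promoters differed widely in CG dinucleotides, which are dense in CpG islands. The upstream Tcf7l2 start held 34 and its uncovered downstream start 7, while the uncovered Wnt11 and Fzd10 starts each held 45, more than the 21 of the covered Gsk3b start. The median was 29 CG per promoter over the 41 member promoters (4 to 58) and 7 over all 32851 promoters of the table. Of these 32851, 21262 belong to protein-coding genes, as all member promoters do. It was 31.5 in the 24 member promoters touched by peaks in all 4 lists, 21 in the 7 touched in 1 to 3 lists and 20.5 in the 10 touched in none. The TCF/LEF heptamer stood in 2 of 41 member promoters (4.88%), at Wnt11 and Wnt5b, beside 3.73% of all promoters and 3.22% of protein-coding promoters. In the uncovered Wnt11 promoter its first base lay at −51 and that of the TATA box at −29 from the start. The E-box stood in 4 member promoters (9.76%, beside 7.15% of all), the AP-1 site in 2 (4.88%, beside 7.81%) and the TATA box in 7 (17.1%, beside 13.6%). Over protein-coding promoters alone these shares were 7.84%, 6.99% and 12.6%. Dvl2, a Dishevelled gene, held 3 of the E-boxes in 1 promoter. A match describes letters in the window and not a bound site.

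A region was called lost when neither sgArid1a list and both sgScramble lists held it, and gained in the reverse case. Of the 270 regions at the 44 genes, 165 stood in all 4 lists (61.1%, beside 53.0% of the regions at all protein-coding genes). The lists held 189 and 204 of the 270 regions in sgArid1a cells, against 223 and 229 in sgScramble cells. There were 26 lost regions, or 12.6% of the 207 that both sgScramble libraries held (8.37 to 17.9%, exact 95% Clopper-Pearson), beside 11.8% over all protein-coding genes. There were 3 gained regions, 1.72% of the 174 in both sgArid1a lists, beside 1.33% over all protein-coding genes. Without sgArid1a replicate 2 the lost count was 40 of 207 (19.3%, beside 21.6% over all protein-coding genes). Without sgScramble replicate 1 it was 42 of 229 (18.3%, beside 19.5%). With any 1 library left out the gained count was 5 to 14 (2.87 to 7.41%, beside 2.71 to 7.86% over all protein-coding genes). As called, the lost and gained shares of the Wnt genes stood near those of all protein-coding genes. In the upper 50% by fold, the gained share was 8 of 73 (10.96%), beside 4.63%. Regions are not replicates, and the intervals cover counting error over regions only. At least 1 lost region lay at 12 of the 42 genes with a region in both sgScramble lists (28.6%, beside 30.1% of all such protein-coding genes), and 3 of the 42 genes with a region in both sgArid1a lists held a gained region (7.14%, beside 3.96% of all such protein-coding genes). At least 2 lost regions lay at 8 of the 42 (19.05%, beside 8.34% of all), at least 3 at 4 of them (9.52%, beside 2.77%) and 4 at both Gsk3b and Tcf7l2 (4.76%, beside 1.21%). The members' windows held 9.94 regions per 100 kb, beside 5.86 over all protein-coding genes, and nothing is read from these shares. Only Wnt5a, a ligand known for beta-catenin-independent signalling, and the receptor gene Fzd10 had no region in any list.

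With every list shortened to the same length by rank, the members' lost count was 6 of 166 (3.61%, beside 6.14% for all protein-coding genes) and the gained count 12 of 170 (7.06%, beside 4.36%). The excess of lost over gained regions at these genes thus turned round with lists of equal length. Of the 26 lost regions, 6 were also lost at equal length, 4 at a −log10 q of at least 5 and 0 under all of 6 alternatives at once (these 2, the upper 50% by fold, merging within 1 kb, 50% overlap, and peaks of at least 500 bp). The 0 says little, since a filter that drops a weak sgScramble peak also ends its lost call. The total at that q did not fall in step, with 23 of 144 regions lost (16.0%, beside 19.1% over all protein-coding genes). At the window's edge, the last region inside lay 9981 bp from the body of Wnt1 and stood in all 4 lists, and the first outside lay 10119 bp from the body of Wnt6 and stood in 1 list.

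**Figure D1:**
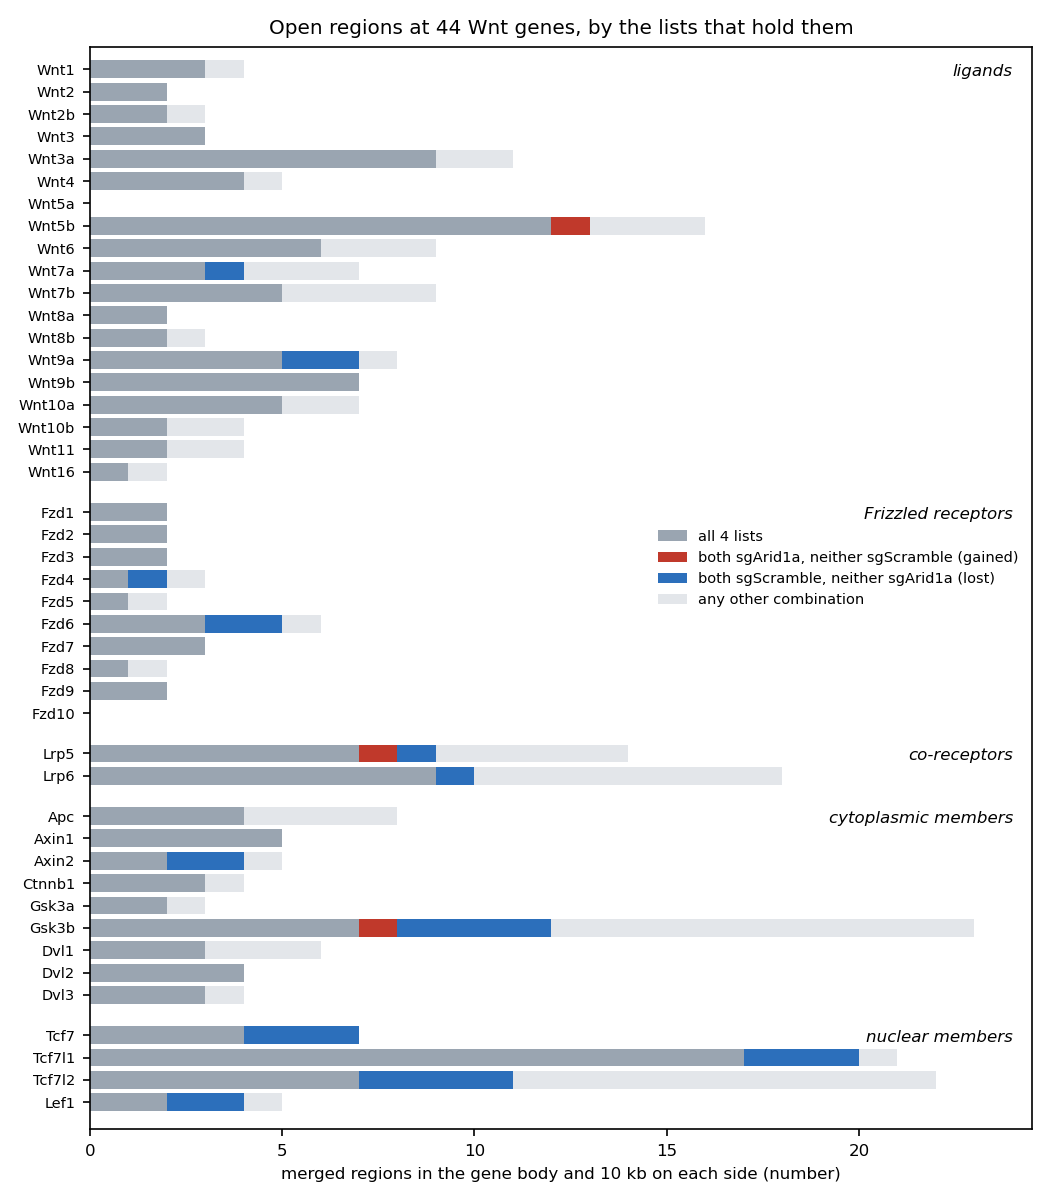
Number of merged regions in the window of each of the 44 genes, split by the lists that hold them; bars run from 0 and a region shared by neighbouring Wnt genes is drawn at each. Lost regions fall on 12 genes, including all 4 nuclear members, and Wnt5a and Fzd10 have no region.

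The lost regions lay away from gene starts and were weak in the sgScramble lists. Of the 26, 21 lay in the gene body and 5 in the flanks. More than 1 kb from any protein-coding gene end were 24 of the 26, beside 5924 of 6347 lost regions at all protein-coding genes. Among such distal regions the lost share was 16.0% of 150 at the members, beside 14.8% of all, and among regions at gene ends it was 3.51% of 57, beside 3.08%. Strength was the rank of a region's deposited fold among all peaks of a list, as a percentile averaged over both sgScramble lists. Lost regions had a median percentile of 18.3 (0.420 to 77.2), and 1 of the 26 lay above 50. The 165 regions held by all 4 lists had a median percentile of 56.6, with 91 above 50. The lost regions were also narrower, with a median of 525.75 bp in the sgScramble lists, beside 1100.5 bp for those held by all 4. Strength and width of lost regions were not measured over all protein-coding genes, so neither is read as a trait of the Wnt genes.

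**Figure D2:**
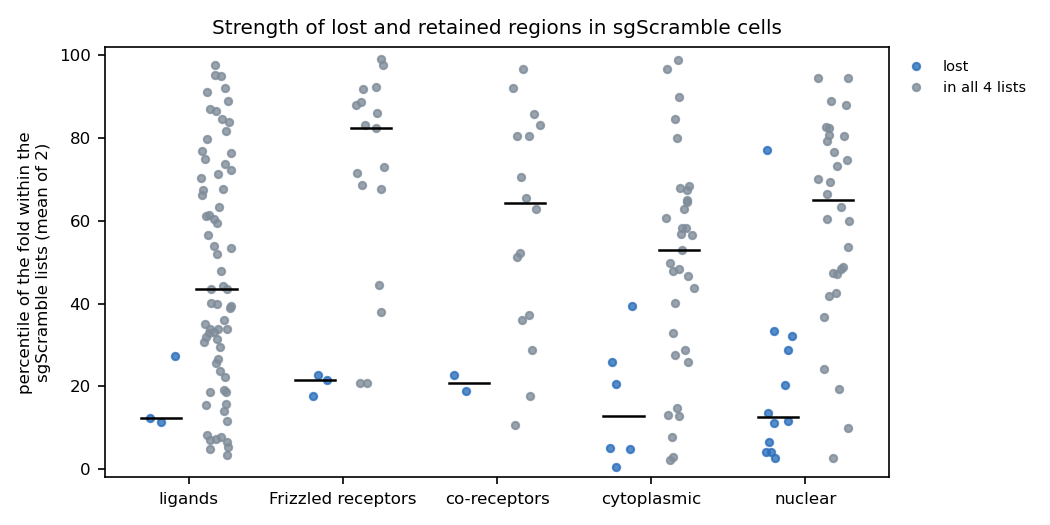
Percentile rank of the deposited fold in sgScramble cells (mean of 2 lists, 0 to 100) for each lost region and each region in all 4 lists, by role; the line is the median. Lost regions lie below the median of the regions kept at the same role, except 1 nuclear-member region at 77.2.

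The 19 ligand genes carried 97 regions and few of them were lost. Lost regions numbered 3 of 80 (3.75%, 0.780 to 10.6%, beside 11.8% over all protein-coding genes), 1 at Wnt7a and 2 at Wnt9a, and without Wnt9a the share was 1.35%. Another 8 ligand regions stood in both sgScramble lists and in 1 sgArid1a list. In 7 cases that list was replicate 2, beside 5294 of 7537 such regions at all protein-coding genes. Without sgArid1a replicate 2 the ligand share was 12.5%, beside 21.6% over all protein-coding genes. Yet the length covered by peaks in ligand windows was 62715 and 70737 bp in sgArid1a cells, against 87763 and 82145 bp in sgScramble cells. The groups did not overlap, and the change of the mean was −21.5%. All protein-coding genes together changed by −20.8%, so the ligand windows lay close to the genome as a whole. Within the 69 ligand regions that all 4 lists held, the covered length changed by −17.6%, beside −11.5% for all genes. In 33 of the 69 (47.8%) both sgArid1a widths were below both sgScramble widths, beside 40.3% of the retained regions at all genes, and in 6 (8.70%) both were above, beside 6.45%.

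Wnt7a, a ligand known for its roles in limb and nervous system patterning (chromosome 6, 91363981 to 91411353), had the lowest ratio of covered length among the members. Its window held 2415 and 2146 bp of peaks in sgArid1a cells, against 6596 and 4640 bp in sgScramble cells, a ratio of 0.406 with no overlap. It was the only member whose start had peaks in both lists of one group and neither of the other: within 1 kb of the start, 0 and 0 bp were covered in sgArid1a cells, against 633 and 518 bp in sgScramble cells. This pattern held for 0.649% of all protein-coding genes, and the reverse pattern for 0.142% of them and none of the members. The start region (chromosome 6, 91411269 to 91412160) was a weak one, with folds of 2.67 and 2.82 in the sgScramble lists and a mean percentile of 11.5. In sgScramble replicate 1 its peak covered all 300 bases of the promoter printed above, and in replicate 2 it lay wholly outside them. A retained region in the Wnt7a body (91400650 to 91402334) measured 362 and 455 bp in sgArid1a cells, against 1674 and 1619 bp in sgScramble cells. The start region was not lost with lists of equal length, where Wnt7a had 0 lost and 2 gained regions.

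Wnt9a, a ligand known from joint development (chromosome 11, 59306849 to 59333552), lost 2 of 8 regions. The first, in the gene body (59323650 to 59324999), had folds of 3.19 and 3.25 in the sgScramble lists. The second, in the flank (59336081 to 59336721), had folds of 2.43 and 2.98. Its start stayed covered, by 1568 and 1447 bp in sgArid1a cells, against 1375 and 1307 bp in sgScramble cells. Wnt9a lies beside Wnt3a, and the 2 genes share 2 regions.

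Wnt5b, a ligand mostly studied in beta-catenin-independent signalling (chromosome 6, 119432531 to 119544824), had the most regions in all 4 lists among the ligands, 12 of 16, and lost none. Its window held 12959 and 13271 bp of peaks in sgArid1a cells, against 15635 and 15218 bp in sgScramble cells. A gained region lay in its flank (119422268 to 119422759), with folds of 2.87 and 2.99 in the sgArid1a lists. It lay 9772 bp from the gene body, close to the 10 kb edge of the window. That region also lies in the window of Adipor2, an adiponectin receptor gene, so it cannot be given to Wnt5b alone. Wnt3a, a classical activator of beta-catenin, likewise had 0 of 10 regions lost, although no list had a peak at its start.

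Among the other ligands, Wnt9b and Wnt3, neighbours that share 2 regions, kept all of their 7 and 3 regions in all 4 lists. Wnt9b, a ligand known from kidney development, had 5090 and 5770 bp covered in sgArid1a cells, against 9349 and 8061 bp in sgScramble cells. The region at its start (103749379 to 103752383) measured 521 and 340 bp in sgArid1a cells, against 2525 and 1441 bp in sgScramble cells. Wnt3 had 3600 and 2844 bp in sgArid1a cells, against 5370 and 4814 bp in sgScramble cells. Both sets of values lay wholly below those of sgScramble cells. Wnt2 ran the other way, with 1490 and 2570 bp in sgArid1a cells, against 1458 and 1194 bp in sgScramble cells. In all, 10 of the 18 ligands with a peak had both sgArid1a windows below both sgScramble windows, 1 had both above and 7 overlapped; the shares of 55.6% and 5.56% lay near the 53.9% and 3.17% of all protein-coding genes.

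Start peaks were least common at ligand genes. A peak within 1 kb of the start stood in all 4 lists at 12 of 19 ligands and at 35 of the 44 members, beside 57.0% of all protein-coding genes. Wnt2b, Wnt3a, Wnt5a and Wnt16 had none, nor did Fzd10 and Axin1, 6 members in all, beside 37.9% of all protein-coding genes; for Axin1, as for the other 11 members with no start in the promoter table, both gene ends were used. Wnt8b had a start peak in sgArid1a replicate 2 alone, and Wnt9b in replicate 1 of each group. Wnt11, a ligand of planar polarity signalling, was covered by 1256 and 1408 bp near its starts in sgArid1a cells, against 1551 and 1575 bp in sgScramble cells. Its downstream promoter was covered over all 300 bases in all 4 lists and its upstream promoter, with the TCF/LEF and TATA letters, over 0.

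The 10 Frizzled receptor genes differed little between the groups in covered length. They carried 24 regions, 17 of them in all 4 lists, and lost 3 of 21 (14.3%, 3.05 to 36.3%, beside 11.8% over all protein-coding genes), 1 at Fzd4 and 2 at Fzd6. Without Fzd6 the share was 6.25%. No region was gained of 17, which allows a share of up to 17.6%. Limits given for a count of 0 are approximate, 3 divided by the number of regions. They run below the exact Clopper-Pearson upper bound, which was 19.5% here. The Frizzled windows held 23314 and 22341 bp of peaks in sgArid1a cells, against 24675 and 23980 bp in sgScramble cells, a change of −6.17%, beside −20.8% for all protein-coding genes. Of the Frizzled regions in both sgScramble lists 52.4% were distal, beside 74.5% for all genes, so these changes compare unlike mixes of regions. Retained regions were summed over whole peaks, also beyond the window edge, so their values can exceed those of the windows. Within the 17 retained regions the values were 23676 and 20914 bp in sgArid1a cells, against 22351 and 22499 bp in sgScramble cells, overlapping, with a change of −0.580%, beside −11.5% for all genes. Within 1 kb of the starts they were 13111 and 13288 bp in sgArid1a cells, against 13096 and 13462 bp in sgScramble cells, a change of −0.599%, beside −5.43% for all genes. Of the 9 genes with a peak, 2 had windows wholly below those of sgScramble cells, 1 (Fzd3, a receptor of planar polarity in neurons) wholly above, and 6 overlapped, beside 53.9% below and 3.17% above over all protein-coding genes.

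Fzd6, a receptor known for hair patterning (chromosome 15, 39006149 to 39038192), lost a region in its body (39018491 to 39019057; folds 3.23 and 2.64 in the sgScramble lists) and one in its flank (39047772 to 39048197; folds 2.82 and 3.35). Its window held 2075 and 2448 bp in sgArid1a cells, against 3197 and 3189 bp in sgScramble cells. Fzd7, a broadly expressed receptor of Wnt ligands (chromosome 1, 59482147 to 59486955), tied with Fzd6 for the most regions in all 4 lists, 3 each, and lost none. Its window held 5225 and 4272 bp in sgArid1a cells, against 4640 and 4465 bp in sgScramble cells, and the groups overlapped. Fzd4, a receptor known from retinal blood vessels, lost a flank region (chromosome 7, 89415886 to 89416506) with folds of 3.12 and 2.98 in the sgScramble lists. The receptors' retained regions were strong, with a median percentile of 82.5, beside 43.5 for those of the ligands, and 10 of their 21 regions lay at gene ends, of which 0 were lost (up to 30% allowed).

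Both co-receptor genes, whose products carry the receptor tail that binds Axin, lost 1 region each, 2 of 20 (10%, beside 11.8% over all protein-coding genes). Lrp6 (chromosome 6, 134446476 to 134566913) had 9 of 18 regions in all 4 lists, more than Lrp5. Its lost region lay in the body (134550436 to 134551077; folds 3.11 and 3.05 in the sgScramble lists). Its window held 10196 and 12670 bp in sgArid1a cells, against 13201 and 13781 bp in sgScramble cells. Lrp5 (chromosome 19, 3584825 to 3686585) held 8834 and 9264 bp in sgArid1a cells, against 11897 and 11325 bp in sgScramble cells. Both lay wholly below sgScramble cells. Lrp5 lost a body region (3638585 to 3639136), with −log10 q values of 11.6 and 12.0 in the sgScramble lists, and gained a flank region (3581434 to 3581771) with folds of 3.53 and 3.84 in the sgArid1a lists. The gained region also lies in the window of Ppp6r3, a phosphatase subunit gene. Neither gene had a start in the promoter table, so both gene ends stood in for it. Coverage near these ends at the 2 genes together was 3052 and 3052 bp in sgArid1a cells, against 2971 and 2735 bp in sgScramble cells. That was a change of +6.98%, beside −5.43% near the starts of all genes.

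Of the 9 cytoplasmic members, 2 carried all 6 lost regions of 42 (14.3%, 5.43 to 28.5%, beside 11.8% over all protein-coding genes): Gsk3b, the kinase that marks beta-catenin, and Axin2, a scaffold of the destruction complex that is itself a well-known target of the pathway. Gsk3b (chromosome 16, 38089001 to 38246084) had 23 regions, 7 of them in all 4 lists, with 11 and 15 in sgArid1a cells, against 16 and 17 in sgScramble cells. Its 4 lost regions of 13 all lay in the gene body. The first and second lay at 38100376 to 38100737 (folds 3.01 and 3.03 in the sgScramble lists) and at 38119297 to 38119728 (folds 3.54 and 3.66). The other 2 lay at 38201188 to 38202543 (folds 2.57 and 2.36) and at 38231141 to 38232501 (folds 3.19 and 3.16). Their distances from the start ran from 11375 to 142140 bp. A region of the same gene was gained (38153413 to 38154422), with folds of 2.74 and 2.97 in the sgArid1a lists, so the body held both lost and gained regions. The start itself was covered by 1937 and 1896 bp in sgArid1a cells, against 1908 and 1960 bp in sgScramble cells, and those values overlap. The whole window held 10093 and 12962 bp in sgArid1a cells, against 15715 and 15909 bp in sgScramble cells.

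The lost share of Gsk3b, 30.8%, was equalled or passed by 63 of the 1074 protein-coding genes with at least 10 regions in both sgScramble lists (5.87%), whose median was 13.3%; since Gsk3b's count chose the set, nothing is read from this. Without Gsk3b the members lost 22 of 194 regions (11.3%). With lists of equal length Gsk3b had 1 lost and 3 gained regions. Its paralogue Gsk3a, a kinase with overlapping function, kept its windows within the spread, with 5296 and 4870 bp in sgArid1a cells, against 5118 and 5075 bp in sgScramble cells, and lost no region.

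Axin2 (chromosome 11, 108917828 to 108950783) lost 2 of 4 regions. The first (108917526 to 108918153) had folds of 1.95 and 1.74 in the sgScramble lists, the lowest of the lost regions. The second (108925186 to 108925506) had folds of 2.36 and 2.58 and was also lost with lists of equal length. The Axin2 window held 2574 and 2599 bp in sgArid1a cells, against 3804 and 4050 bp in sgScramble cells, while its start held 1238 and 1265 bp in sgArid1a cells, against 1241 and 1249 bp in sgScramble cells. Its relative Axin1 kept all 5 regions in all 4 lists. Ctnnb1, which encodes beta-catenin, lost no region, and the length covered near its starts was 1436 and 1635 bp in sgArid1a cells, against 2179 and 2179 bp in sgScramble cells. Apc, Dvl1, Dvl2 and Dvl3 lost none either. Over the 9 genes, windows lay wholly below sgScramble cells at 8, Gsk3a being the exception, beside 53.9% of all protein-coding genes, and the summed change was −16.6%, beside −20.8% for all genes.

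**Figure D3:**
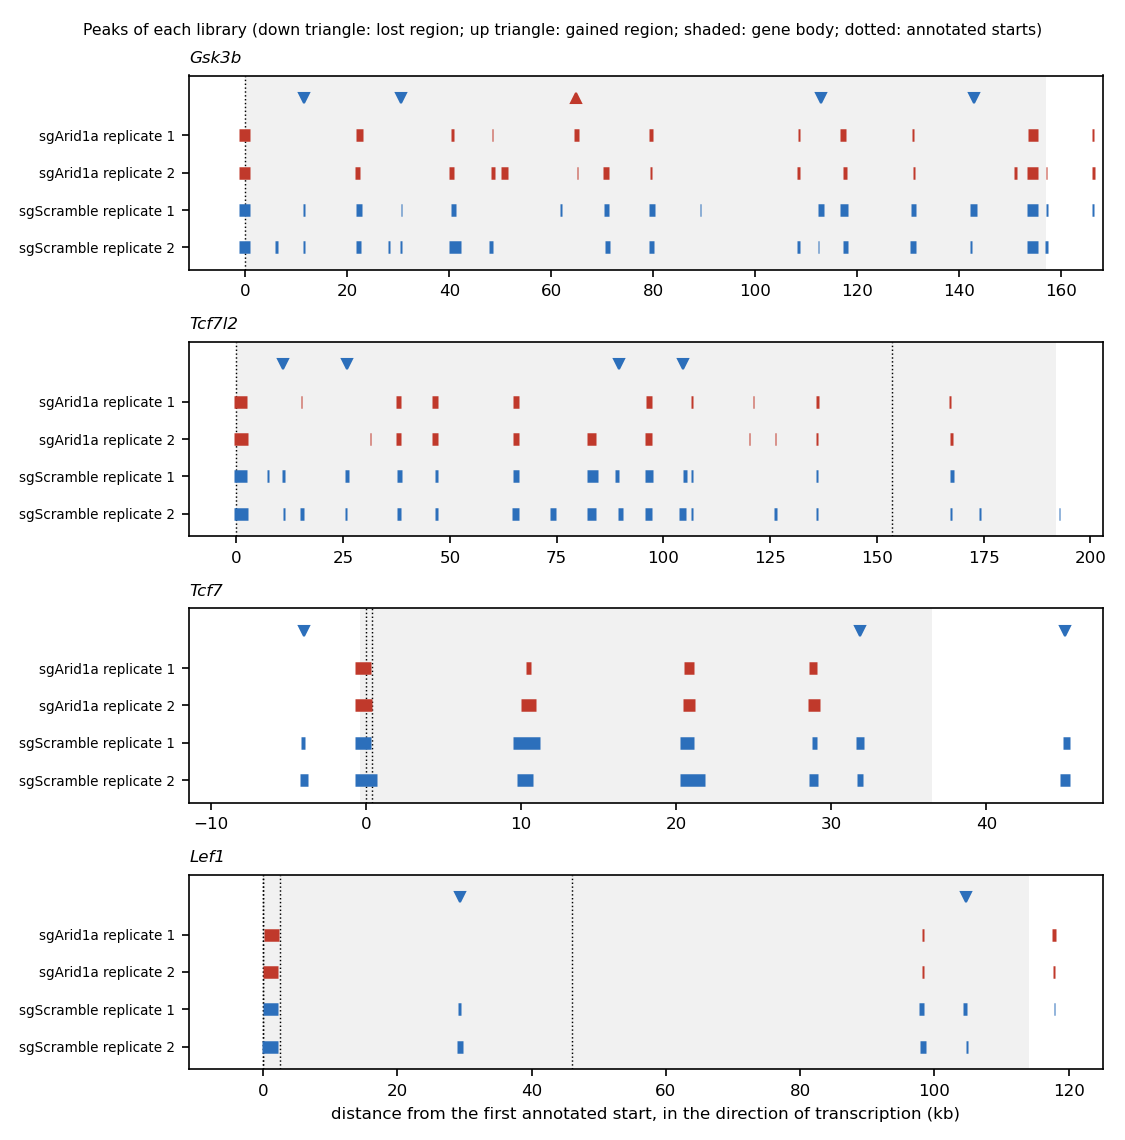
Peaks of each library along Gsk3b, Tcf7l2, Tcf7 and Lef1, by distance from the first annotated start in the direction of transcription (kb); sgArid1a libraries are the upper rows of each panel, shading is the gene body and dotted lines are annotated starts. Downward triangles mark the lost regions (4, 4, 3 and 2) and the upward triangle the gained region of Gsk3b.

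The 4 nuclear members, the TCF/LEF proteins that bind DNA with beta-catenin, all had lost regions, 12 of 44 in sum (27.3%, 15.0 to 42.8%, beside 11.8% over all protein-coding genes). With lists of equal length they lost 3 of 33 (9.09%, beside 6.14%), 2 at Tcf7, 1 at Tcf7l1 and 0 at Tcf7l2 and Lef1, and with peaks of at least 500 bp 4 of 31 (12.9%, beside 12.5%). No region was gained of 31, which allows a share of up to 9.68%. Leaving out one gene at a time, the lost share ran from 24.3% without Tcf7 to 37.5% without Tcf7l1. Their windows held 31614 and 37654 bp of peaks in sgArid1a cells, against 46312 and 49780 bp in sgScramble cells, a change of −27.9%, beside −20.8% for all protein-coding genes. All 4 genes lay wholly below sgScramble cells, as did 53.9% of protein-coding genes. Within the 30 retained regions the change was −9.21%, beside −11.5% for all genes, and within 1 kb of the starts it was −4.70%, beside −5.43%. The 12 lost regions were all distal, 30.8% of the 39 distal regions of these genes, beside 14.8% of distal regions at all genes.

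Tcf7l2, the TCF protein known from intestinal epithelium and from glucose metabolism (chromosome 19, 55741797 to 55933659), lost 4 of 13 regions. They lay at 55752442 to 55753188 (folds 2.72 and 3.30 in the sgScramble lists), 55767272 to 55768252 (2.79 and 2.84), 55830408 to 55832279 (2.58 and 2.84) and 55845379 to 55847223 (2.68 and 2.48). All 4 stood in the gene body and were weak, with mean percentiles of 6.65 to 20.2, and none was lost with lists of equal length. The window held 10679 and 13256 bp in sgArid1a cells, against 16518 and 18853 bp in sgScramble cells. Its upstream promoter was covered over all 300 bases in all 4 lists and the downstream promoter over 0.

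Tcf7, the TCF protein best known from T cells (chromosome 11, 52246527 to 52283383), lost 3 of 7 regions, and its other 4 stood in all 4 lists. The strongest lost region of the whole set lay in its flank (52237627 to 52238274), with folds of 5.49 and 4.85 in the sgScramble lists. That region lies inside the body of Skp1, a ubiquitin ligase subunit gene, so it cannot be given to Tcf7 alone. Another (52250916 to 52251409; folds 3.395 and 3.334) lay in the body of Tcf7 and also in the window of Skp1. Both of these regions were also lost with lists of equal length. The third (52286705 to 52287282; folds 2.15 and 2.39) lay 3691 bp from an annotated start. The window held 2622 and 3695 bp in sgArid1a cells, against 5203 and 6235 bp in sgScramble cells.

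Tcf7l1, a TCF protein known mainly as a repressor (chromosome 6, 72626371 to 72789045), had 17 of 21 regions in all 4 lists, the most of any member. It lost 3 of 20, at 72694237 to 72694622 (folds 2.53 and 2.28 in the sgScramble lists), 72755224 to 72756574 (2.76 and 2.76) and 72761641 to 72762019 (2.29 and 2.52). Its share, 15.0%, was reached by 45.3% of genes with at least 10 regions. The window held 15412 and 17772 bp in sgArid1a cells, against 20407 and 20343 bp in sgScramble cells. Lef1, a partner of beta-catenin in hair follicle development (chromosome 3, 131110297 to 131224357), lost 2 of 4 regions, at 131139231 to 131140002 (folds 2.996 and 3.544) and 131214628 to 131215267 (folds 3.24 and 3.57). Its window held 2901 and 2931 bp in sgArid1a cells, against 4184 and 4349 bp in sgScramble cells. Near the Lef1 starts, 1661 and 1777 bp were covered in sgArid1a cells, against 1800 and 1907 bp in sgScramble cells.

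Set side by side, the intracellular members (cytoplasmic and nuclear together) lost 18 of 86 regions (20.9%, 12.9 to 31.0%), the Frizzled receptors 14.3% and the ligands 3.75%, beside 11.8% over all protein-coding genes. Without Gsk3b the intracellular share was 19.2% (14 of 73). Among distal regions the shares were 28.3% of 60 for intracellular members, 27.3% of 11 for Frizzled receptors and 3.17% of 63 for ligands, beside 14.8% over all. The order depended on how peaks were called. With peaks of at least 500 bp it turned round, to 20.3% of 64 for ligands, 0 of 16 for Frizzled receptors and 8.20% of 61 for intracellular members, beside 12.5% for all protein-coding genes. In that setting Wnt3a, Wnt7b and Wnt9a lost 3 regions each and Wnt7a lost 2. Peaks under 500 bp were dropped before merging, so a region could count as lost there while sgArid1a cells held a narrower peak. One such Wnt3a region (59257435 to 59258143) measured 430 and 410 bp in sgArid1a cells, against 645 and 709 bp in sgScramble cells. The turned order thus counts narrowing across a width cutoff along with absent peaks. With lists of equal length the shares were 0 of 62 for ligands (up to 4.84% allowed), 0 of 17 for Frizzled receptors (up to 17.6%) and 7.25% of 69 for intracellular members, beside 6.14% over all. In regions kept by all 4 lists the covered length changed by −10.8% at intracellular members, beside −17.6% at ligands. No test separates the roles, since the same contrast chose the set.

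**Figure D4:**
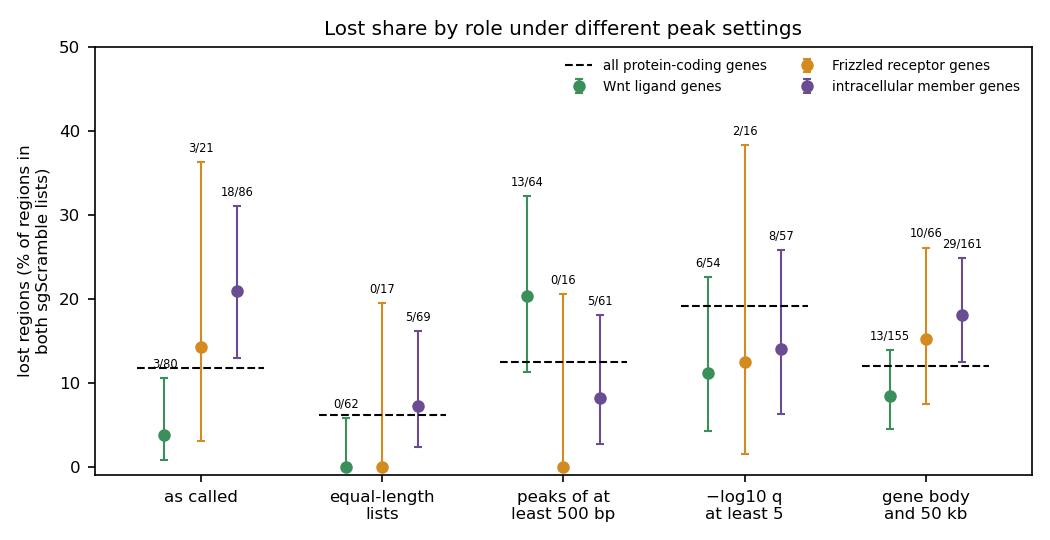
Lost regions as a percentage of the regions in both sgScramble lists, for intracellular, Frizzled and ligand genes under 5 ways of calling or assigning peaks; points are shares, bars are 95% Clopper-Pearson intervals over regions, labels give lost and total regions, and dashes give all protein-coding genes. Ligands lie below intracellular members as called (3.75% and 20.9%) and above them with peaks of at least 500 bp (20.3% and 8.20%). In that setting a region counted as lost could still hold a narrower sgArid1a peak.

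Over all members, peaks covered 183697 and 204380 bp of the windows in sgArid1a cells, against 243188 and 240132 bp in sgScramble cells. The means were 194038 ± 14625 bp in sgArid1a cells and 241660 ± 2161 bp in sgScramble cells (SD, n = 2 each), a change of −19.7%, beside −20.8% for all protein-coding genes. Near gene starts the values were 44823 and 47451 bp in sgArid1a cells, against 49288 and 47095 bp in sgScramble cells, which overlap, with a change of −4.26%, beside −5.43% for all genes. When only peaks in the upper 50% by fold were kept, the start values turned round, to means of 28393 bp in sgArid1a cells and 21434 bp in sgScramble cells. The cutoff was set within each list, and start coverage of all genes was not measured in this setting. Whether the reversal is particular to the Wnt genes was therefore not tested. Windows lay wholly below sgScramble cells at 26 of the 42 members with a peak (61.9%, beside 53.9% of all protein-coding genes) and wholly above at 2, Wnt2 and Fzd3 (4.76%, beside 3.17%). The median ratio of sgArid1a to sgScramble covered length was 0.838 over the members and 0.837 over all protein-coding genes.

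**Figure D5:**
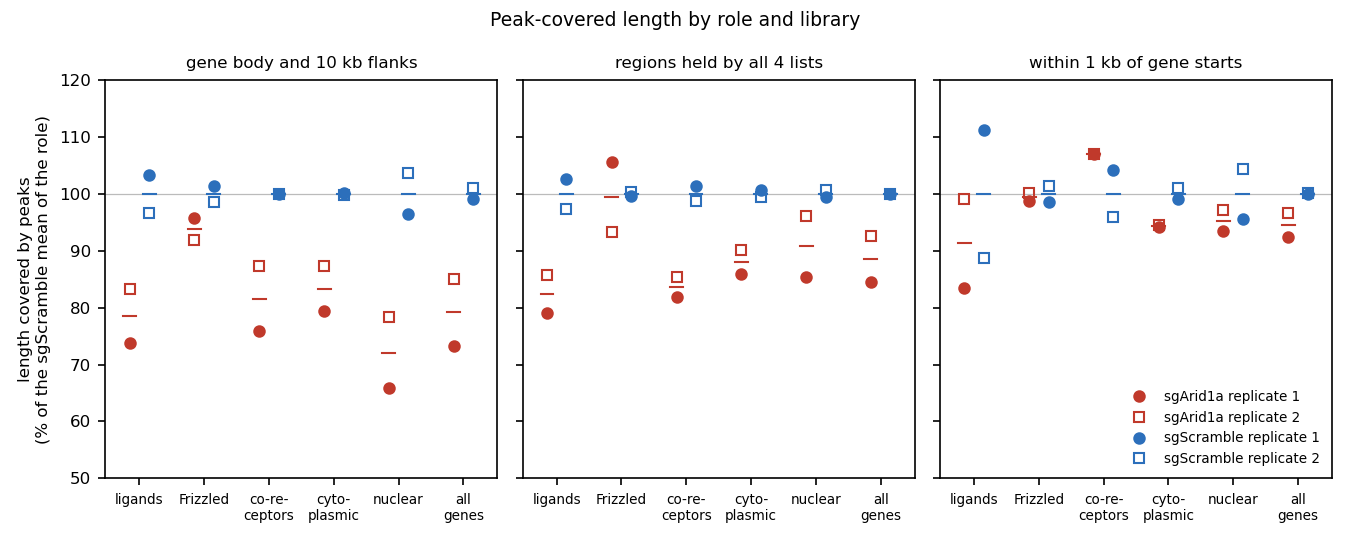
Length covered by peaks in each library as a percentage of the sgScramble mean of that role, for whole windows, for regions held by all 4 lists and for 1 kb around gene starts; short lines are group means (n = 2). In whole windows sgArid1a libraries lie below sgScramble libraries at every role, from −27.9% at nuclear members to −6.17% at Frizzled receptors. Near starts the groups overlap at ligands, Frizzled receptors and nuclear members. There, sgArid1a libraries lie above sgScramble libraries at co-receptors, for which both gene ends stood in for starts, and below them at cytoplasmic members.

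Another 58 genes of the pathway, drawn from a fixed list of antagonists, R-spondin receptors, secretion factors, other receptors, destruction complex partners, nuclear partners and targets, were measured in the same way. They lost 41 of 307 regions (13.4%, 9.76 to 17.7%), at 26 genes, and gained 0 of 233. The approximate limit for that 0 was 1.29%, too close to the 1.33% of all protein-coding genes to set these genes apart. Over all protein-coding genes 11.8% of regions were lost, 1.33% gained and 30.1% of genes had a lost region, so the lost share of these genes lay near the background. The group of other receptors and planar polarity genes lost 19 of 111 (17.1%), the R-spondins and their receptors 8 of 60 (13.3%) and the secreted antagonists, which block ligands or receptors outside the cell, 1 of 27 (3.70%). Destruction complex partners lost 7 of 58 (12.1%), nuclear partners 4 of 36 (11.1%), targets 2 of 9 and secretion factors 0 of 7 (up to 42.9% allowed). Prickle2, a planar polarity gene, lost the most, 5 of 18, and its window held 12 and 12 regions in sgArid1a cells, against 19 and 22 in sgScramble cells. Ptk7, a co-receptor of planar polarity, lost 4 of 12, with 8 and 12 regions in sgArid1a cells, against 15 and 13 in sgScramble cells. Rnf43, an enzyme that removes Frizzled receptors from the cell surface, lost 3 of 7, with 5 and 5 regions in sgArid1a cells, against 8 and 8 in sgScramble cells. All 3 had a start peak in all 4 lists.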

How the data were processed

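Each of the 4 ATAC-seq libraries was represented by the authors' deposited broad peak list, called per library. Each peak carried a score, a fold (a ratio over background) and −log10 p and q values, as deposited by the authors. In each list the score equalled 10 times −log10 q, rounded down, in at least 99.99% of peaks. STAR 2.5.3a, HOMER, GRCm38 and mm10 appear, with no roles, in the submitters' processing notes. Peak caller and Tn5 shift: not given in the sources used here. Fold was ranked within a list only, since depth is unknown.

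Groups and replicates came from sample titles. Peaks overlapping by at least 1 bp were merged. Gene bodies came from a RefSeq table (GRCm38.p6), starts from its promoter table for 32 members and both gene ends for the other 12. Covered length was to be compared by exact permutation over libraries; its p-values are left out, since the contrast that brought the set forward is the one tested. The members, gene lists and roles were chosen with earlier results of these data known. The genes described in full were the 8 with the most lost regions, those with a gained region or a start present in 1 group alone, the richest in retained regions per role, and the 3 other pathway genes with the most lost; other genes named were chosen after their values were seen. Alternatives were a −log10 q of at least 5, the upper 50% by fold, lists of equal length, merging within 1 kb, 50% overlap, peaks of at least 500 bp, other windows, each library left out and a replicate block; omitting Gsk3b and distal regions were added after seeing the data. Merging was tested on simulated data. Genome sequence beyond promoters was not used here. Python 3.11.15, numpy 2.4.6, pandas 2.3.3, SciPy 1.17.1 and matplotlib 3.10.9 were used.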

Additional observations from a re-analysis of the deposited data

How the results depend on the processing

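Lost regions at the members numbered 26. They were 23 at a −log10 q of at least 5, 9 with the upper 50% by fold, 6 with lists of equal length and 54 with gene bodies and 50 kb. With a library left out they were 28 to 42 (40 without sgArid1a replicate 2, 42 without sgScramble replicate 1). Over all protein-coding genes the lost share was 11.8%, between 6.14% at equal length and 21.6% without sgArid1a replicate 2. With a library left out the members lost 13.5 to 19.3%, beside 15.9 to 21.6% over all protein-coding genes. Gained regions numbered 3; they were 0 of 101 at a −log10 q of at least 5 (up to 2.97% allowed), 8 of 73 with the upper 50% by fold (beside 4.63% over all genes), 12 of 170 at equal length (beside 4.36%), 1 with peaks of at least 500 bp, 1 in gene bodies alone, 5 with 50 kb, and 5 to 14 with a library left out, beside 1.33% of regions at all genes as called, 0.274% at the stricter q and 7.86% without sgArid1a replicate 1. The ligand lost share of 3.75% was 11.1% at a −log10 q of at least 5, 10.7% in the upper 50%, 0 at equal length, 20.3% with peaks of at least 500 bp, and 4.71 to 12.5% with a library left out. Filters by q, fold, rank or width dropped peaks before merging, so a region lost under them could still hold a dropped sgArid1a peak. The Frizzled share of 14.3% was 0 at equal length and 0 with peaks of at least 500 bp. The intracellular share of 20.9% was 14.0% at a −log10 q of at least 5, 11.1% in the upper 50%, 7.25% at equal length and 8.20% with peaks of at least 500 bp. In these settings, in the same order, the lost share over all protein-coding genes was 19.1%, 13.0%, 6.14% and 12.5%. It was 15.9 to 21.6% with a library left out. Covered length near member starts, −2054.5 bp as called, reversed to 6959.5 bp in the upper 50% by fold (28393 bp in sgArid1a cells and 21434 bp in sgScramble cells). No value over all protein-coding genes was measured beside this reversal. Across windows the difference stayed negative, from −47622 bp to −4879.5 bp in the upper 50% and −15400 bp at equal length, and −57963 to −37280 bp with a library left out. The causes of these moves were not tested. With the replicate number as a block the window difference was −47622 bp, the start difference −2054.5 bp, and the lost and gained counts were 26 and 3 by construction. Same-numbered libraries did not deviate together in −log10 p (r = 0.0183 over 52885 regions held by all lists). The labels link them by number alone, and this correlation cannot show whether they shared a culture or batch. The lists hold no counts, so depth cannot be told apart from the group.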
